A study of Homo sapiens with 4 samples.

Results

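Signal from RNA crosslinked to protein was followed over 5 genes of the actin cytoskeleton, FLNA, CALD1, MYH9, ACTN4 and TPM1, out of 15392 measured genes. The 5 were chosen by name with their signal in these libraries already known, so their levels and the ratios between groups are given as a description with no test. FLNA and CALD1 have lines of their own in the deposited tables and were summed from their start to their end, over at most 100 kb. MYH9, ACTN4 and TPM1 were read through the windows of neighbouring genes (APOL1 and MYH9-DT for MYH9, EIF3K and LGALS4 for ACTN4, and the unnamed gene ENSG00000259672 for TPM1).

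The study asked whether CFAP20, a protein known from cilia and flagella, binds RNA, and used FLASH-seq for this. In FLASH-seq, ultraviolet light joins proteins to RNA in contact with them, a biotin-carrying protein is captured on streptavidin beads, RNase I trims the RNA, and the fragments left on the beads are sequenced. The tagged-CFAP20 group held 2 libraries of RPE1 iCas9 p53/puro-dKO CFAP20-KO cells that expressed FLASH-BIO-CFAP20. The CFAP20-KO group held 2 libraries of the same RPE1 iCas9 p53/puro-dKO CFAP20-KO cells without the tagged protein and was the negative control, so all 4 libraries share the loss of CFAP20 and p53 and the inducible Cas9. RPE1 is a human line, immortalised from cells of the retinal pigment epithelium, that grows attached to plastic. Whether replicates are separate cultures is not stated, so p-values reflect only how these 4 libraries vary, and that variation may be technical. RNA in the cell and RNA held on the beads cannot be told apart here, because the comparison uses no measure of how much of each RNA the cells contain.

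The actin cytoskeleton is a network of filaments that gives a cell its shape and lets it pull on its surroundings. Filamin A (FLNA) and alpha-actinin-4 (ACTN4) join filaments to each other, and the myosin heavy chain encoded by MYH9 moves along them to make tension. Tropomyosin 1 (TPM1) winds along the filament, and caldesmon (CALD1) binds actin and tropomyosin and restrains myosin.

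Depth differed greatly between the groups. Read overlaps, meaning reads counted in each 200-bp bin they touch, numbered 655566 and 530538 over all windows in the tagged-CFAP20 libraries, against 36303 and 15453 in the CFAP20-KO libraries. A single overlap was worth a signal of 12.9 and 13.9 in the tagged-CFAP20 libraries and 83.0 and 276.88 in the CFAP20-KO libraries, so CFAP20-KO values move in large steps. Total window signal also differed, at 8426208 and 7392163 with the tagged protein against 3013149 and 4278627 in CFAP20-KO, and the quantity the authors scaled to is not given in the sources used here. CFAP20 itself, measured over at least 75% of its length through a neighbouring window, had 43 and 39 overlaps with the tagged protein and 0 and 0 in the CFAP20-KO libraries. Of 10 retinal pigment epithelium markers, 7 were measured and 6 had signal with the tagged protein, with OTX2 at 26 and 34 overlaps, BEST1 at 37 and 18 and MITF at 31 and 21. RPE65 had 4 and 2 overlaps there, LRAT 3 and 4, RLBP1 1 and 0, and TTR none. In CFAP20-KO, OTX2 had 0 and 0 overlaps, BEST1 1 and 0 and MITF 5 and 0, and RPE65, LRAT, RLBP1 and TTR had none. BEST1 was read through neighbouring windows. Signal is not split by strand, so its overlaps cannot be told from those of any overlapping gene. FN1 and VIM, genes of cultured mesenchymal lines, were high in all 4 libraries. None of the 3 blood markers measured had any overlap, and 1 of 4 liver markers had 1. Of 4 neuronal markers measured, 3 had signal, with summed levels of 450 and 307 in the tagged-CFAP20 libraries and 0 and 0 in the CFAP20-KO libraries. Of 4 muscle markers measured, 3 had signal, with summed levels of 784.1 and 613.1 with the tagged protein and 249 and 277 in CFAP20-KO, most of it from LMOD1 at 56 and 41 overlaps against 3 and 1, while ACTN2 had 2 and 3 against 0 and 0. The part of these markers in the results was not tested.

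The 5 stretches of sequence below are the 200-bp bins that held most tagged-CFAP20 signal in each gene, shown because each lies across a border between an exon and an intron. Each is given in the direction of the gene, from the hg38 reference, with coding bases in capitals and intron bases in lower case. They are chrX:154350139-154350338 (minus strand, exon 45 of FLNA), chr7:134867750-134867949 (plus strand, exon 3 of CALD1), chr22:36291971-36292170 (minus strand, exon 31 of MYH9), chr19:38727065-38727264 (plus strand, exon 18 of ACTN4) and chr15:63059570-63059769 (plus strand, exon 4 of TPM1), with exons numbered along the canonical transcripts of GENCODE 44.
FLNA exon 45: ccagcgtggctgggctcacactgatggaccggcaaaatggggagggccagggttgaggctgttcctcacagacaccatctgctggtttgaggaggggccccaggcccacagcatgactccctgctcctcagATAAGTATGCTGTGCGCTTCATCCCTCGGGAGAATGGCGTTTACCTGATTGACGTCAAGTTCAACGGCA
CALD1 exon 3: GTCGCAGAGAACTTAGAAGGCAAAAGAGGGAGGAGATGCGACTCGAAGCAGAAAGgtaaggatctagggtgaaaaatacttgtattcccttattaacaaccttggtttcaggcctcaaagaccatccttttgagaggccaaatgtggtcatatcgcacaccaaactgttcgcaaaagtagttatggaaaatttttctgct
MYH9 exon 31: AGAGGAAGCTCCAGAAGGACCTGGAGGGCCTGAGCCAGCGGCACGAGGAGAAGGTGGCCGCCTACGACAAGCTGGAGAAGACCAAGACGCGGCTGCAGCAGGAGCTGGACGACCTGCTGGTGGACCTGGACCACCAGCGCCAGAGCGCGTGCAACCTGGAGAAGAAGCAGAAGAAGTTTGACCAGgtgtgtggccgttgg
ACTN4 exon 18: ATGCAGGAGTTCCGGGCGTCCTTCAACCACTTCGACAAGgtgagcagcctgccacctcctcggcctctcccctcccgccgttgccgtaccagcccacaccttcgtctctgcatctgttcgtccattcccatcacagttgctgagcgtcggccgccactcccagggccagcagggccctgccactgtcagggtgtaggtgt
TPM1 exon 4: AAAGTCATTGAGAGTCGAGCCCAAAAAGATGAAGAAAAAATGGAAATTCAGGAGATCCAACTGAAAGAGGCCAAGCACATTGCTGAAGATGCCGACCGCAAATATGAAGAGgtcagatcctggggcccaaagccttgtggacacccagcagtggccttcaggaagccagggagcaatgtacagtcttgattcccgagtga
The FLNA bin holds the end of an intron and the start of its exon, with 69 coding bases. The other 4 hold the end of an exon followed by the start of the next intron, with 55, 185, 39 and 111 coding bases in CALD1, MYH9, ACTN4 and TPM1. The annotation puts no untranslated base in any of the 5. A 200-bp bin is longer than most canonical exons of these genes, so a bin on an exon often crosses a border.

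FLNA and ACTN4, the crosslinkers, were covered over their whole length. FLNA lies on the minus strand at chrX:154348524-154374634 (ENSG00000196924, 48 exons). Its signal summed over the gene was 16992 and 14379 in the tagged-CFAP20 libraries, against 3901 and 8583 in the CFAP20-KO libraries, a ratio of means of 2.51. Both tagged-CFAP20 values lay above both CFAP20-KO values. ACTN4 lies on the plus strand at chr19:38647649-38731589 (ENSG00000130402, 21 exons). Its signal was 13972 and 11983 with the tagged protein, against 4980 and 6091 in CFAP20-KO, a ratio of 2.34. Again the groups did not overlap.

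MYH9, the motor, lies on the minus strand at chr22:36281280-36388010 (ENSG00000100345, 41 exons), of which 99.9% was measured. Its signal ranked 2 of all 15392 genes in the tagged-CFAP20 libraries, at 33033 and 28438, and 3 in CFAP20-KO, at 8383 and 14952. The ratio was 2.63 and the groups did not overlap.

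The filament-binding regulators were measured only in part. TPM1 lies on the plus strand at chr15:63042620-63071915 (ENSG00000140416, 10 exons in the canonical transcript), and 79.2% was measured, without its start, which holds the first 2 canonical exons. Its signal was 23265 and 18462 in the tagged-CFAP20 libraries, against 8964 and 14675 in the CFAP20-KO libraries, a ratio of 1.77 with no overlap between groups. CALD1 lies on the plus strand at chr7:134744252-134970729 (ENSG00000122786, 15 exons), and only 44.2% was measured, most of it intron, with 317 of its 501 bins also lying in another annotated gene. It had 62 and 82 overlaps with the tagged protein, against 2 and 5 in CFAP20-KO, which gave a signal of 796.9 and 1143 against 166 and 1384. The CALD1 groups overlapped, with the highest value in a CFAP20-KO library. CALD1 ranked 1088 of 15392 in tagged-CFAP20 signal, where the other 4 ranked between 2 and 6. In CFAP20-KO signal CALD1 ranked 480 and the other 4 between 2 and 8. Ranked by tagged-CFAP20 signal per length, TPM1 was 6, FLNA 8, MYH9 44, ACTN4 129 and CALD1 4551.

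Both tagged-CFAP20 libraries lay above both CFAP20-KO libraries in 4 of the 5 genes. The same held for 70.8% of the 8475 genes with signal in at least 2 libraries. At least 1851 of these had no CFAP20-KO overlap, so that their order was fixed by the filter. All 5 genes had CFAP20-KO overlaps, so 70.8% is not a like background for them. Summed over the 5 genes, signal was 81231 ± 9655 with the tagged protein and 36040 ± 13641 in CFAP20-KO (SD, n = 2 each). The ratio of these means was 2.25, beside 2.29 for all genes together.

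Set against each library's own total, most of the difference was gone. The 5 genes held 1.05% and 1.01% of window signal in the tagged-CFAP20 libraries and 0.876% and 1.07% in the CFAP20-KO libraries, a ratio of means of 1.06. By this share FLNA had a ratio of 1.200, MYH9 1.24 and ACTN4 1.07, while CALD1 at 0.658 and TPM1 at 0.821 were lower with the tagged protein. The MYH9 share was 0.392% and 0.385% in the tagged-CFAP20 libraries against 0.278% and 0.349% in CFAP20-KO. Of the 5, MYH9 alone had both tagged-CFAP20 values above both CFAP20-KO values. How many of all genes do so by share was not counted, so this is not read as particular to MYH9. The plot of signal and share by library shows both scales.

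**Figure D1:**
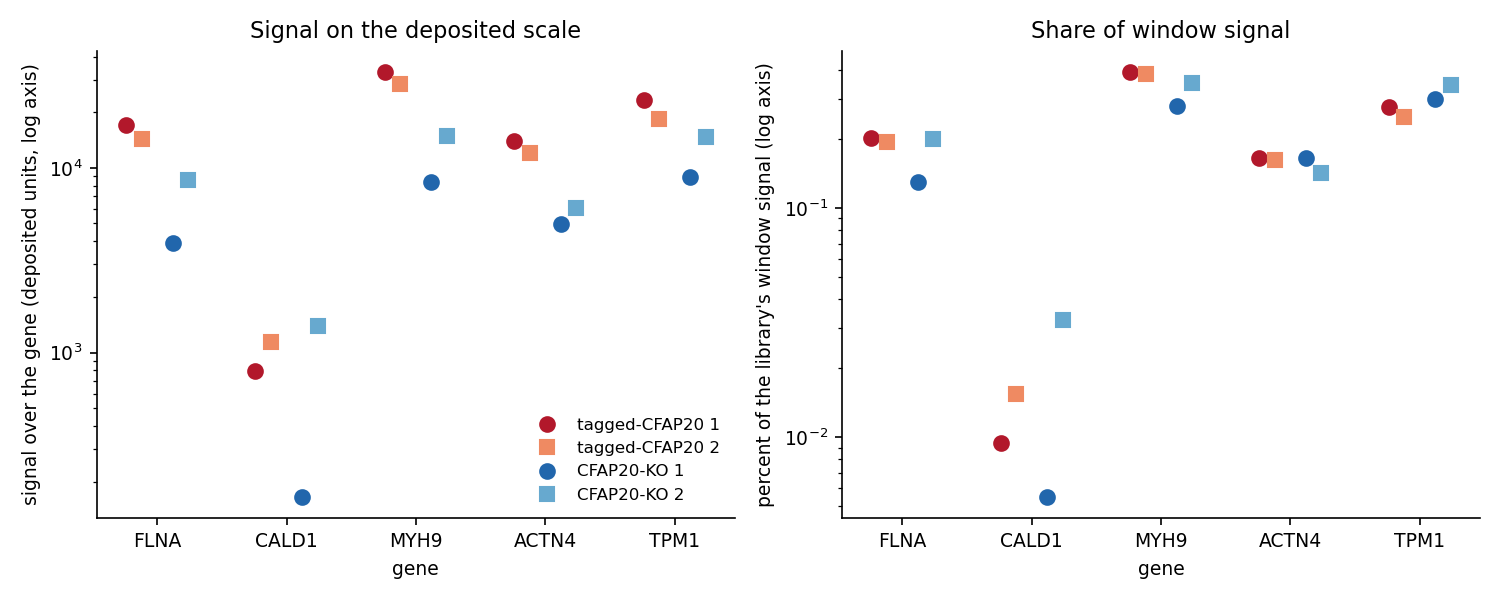
Signal summed over each gene in deposited units (left) and as a percentage of all window signal of the library (right), both on log axes; each point is 1 library. On the deposited scale 4 of the 5 genes have both tagged-CFAP20 libraries above both CFAP20-KO libraries, as do 70.8% of all genes tested. That share includes genes with no CFAP20-KO overlap, where the order was fixed by the filter. By share only MYH9 does, and the rate over all genes was not counted on that scale.

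Per kb of measured gene, so that genes can be compared, TPM1 was densest and CALD1 sparsest in both groups. Signal per kb in TPM1 was 899.3 ± 146 with the tagged protein and 509.5 ± 174 in CFAP20-KO (SD, n = 2 each). FLNA followed at 598.7 ± 70.5 with the tagged protein and 238 ± 126 in CFAP20-KO. MYH9 had 288 ± 30.5 and 109 ± 43.6, and ACTN4 154 ± 16.7 and 65.9 ± 9.36, in tagged-CFAP20 and CFAP20-KO. CALD1 had 9.68 ± 2.44 with the tagged protein and 7.74 ± 8.60 in CFAP20-KO. Within the tagged-CFAP20 group no neighbours in this order overlapped between libraries, and the same order held in CFAP20-KO.

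Within the genes, signal gathered on exons. Bins touching an exon of a protein-coding transcript made up 15.0% of the bins of the 5 genes. They held 65.4% and 66.2% of overlaps in the tagged-CFAP20 libraries (95% exact binomial intervals 64.2 to 66.5 and 64.9 to 67.4) and 60.7% and 64.8% in the CFAP20-KO libraries (55.1 to 66.1 and 57.0 to 72.1). These intervals cover counting error only and are slightly too narrow, since 1 read covers 1.37 bins. The difference of 3.01 percentage points had an exact two-sided permutation p of 0.333, the smallest that 6 assignments of 2 against 2 libraries allow, so no difference here could pass 0.05. The difference was 0.21 points without TPM1 and -3.29 points when a bin counted as exonic only with at least 100 exonic bases. It was 0.93 points without CFAP20-KO replicate 1 and 5.09 points without CFAP20-KO replicate 2.

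Exon signal was high in bins with few exonic bases as well as in bins that are mostly exon. Bins of both kinds can cross an exon border, and a bin counts any read that touches it. Signal on borders is therefore not resolved. Pooled over the 5 genes, bins with at least 100 exonic bases had a signal per kb of 1151 and 1015 in the tagged-CFAP20 libraries, against 412 and 611.05 in CFAP20-KO. Bins with only 1 to 99 exonic bases were almost as dense with the tagged protein, at 1089 and 891.9, against 183 and 536.3 in CFAP20-KO. Intron bins within 2 bins of an exon bin dropped to 310 and 237, against 80.7 and 110 in CFAP20-KO. Intron bins farther away had 62.4 and 55.3 with the tagged protein and 26.4 and 44.1 in CFAP20-KO. The same order of bins, with distant intron sparsest, was therefore present in the control as well.

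**Figure D2:**
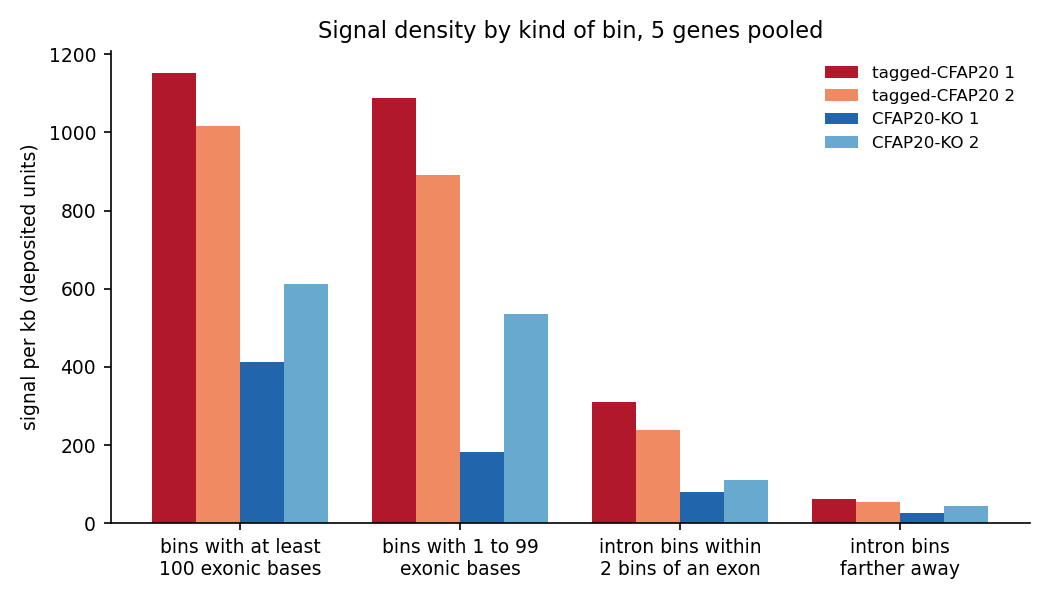
Signal per kb, in deposited units, for 4 kinds of 200-bp bin pooled over the 5 genes; each bar is 1 library. Bins with few exonic bases stand near those that are mostly exon in the tagged-CFAP20 libraries, and distant intron is sparsest in all 4 libraries.

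Other coding genes had exon signal too, at lower shares, which are given as a description with no test. Pooled over them, exon bins held 49.7% and 49.6% of overlaps in the tagged-CFAP20 libraries and 43.7% and 45.8% in CFAP20-KO, where exon bins were 15.3% of bins. Among the 610 other coding genes with at least 200 tagged-CFAP20 overlaps, the median exon share was 48.9%, with the middle 50 percent between 34.1% and 65.4%. FLNA at 74.6%, MYH9 at 69.0% and TPM1 at 67.7% lay above that range, with 91, 127 and 136 of the 610 genes higher still. ACTN4 was at 47.6% and CALD1 at 20.1%. These shares depend on how much of a gene is exon, and exon bins were 57.3% of the bins of FLNA, 31.0% of TPM1, 17.1% of MYH9, 11.0% of ACTN4 and 1.60% of CALD1. FLNA, highest in exon share, thus exceeded its share of exon bins by the smallest factor of the 5, and the ranks among other genes do not allow for this.

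Introns differed greatly from each other. In FLNA, intron 30, a stretch of 2178 bases at chrX:154355073-154357250 between a 24-base exon and exon 31, had 172 and 115 overlaps with the tagged protein, against 1 and 3 in CFAP20-KO. That is 47.9% and 48.1% of all FLNA intron overlaps with the tagged protein. Its signal per kb, 1105 and 801.2, reached that of FLNA coding bins, 856.9 and 764.4, in the same libraries. In CFAP20-KO intron 30 had a signal per kb of 41.5 and 415. Its 1 and 3 overlaps there were out of 3 and 7 in all FLNA intron bins. Intron 8 of TPM1 had 85 and 56 overlaps with the tagged protein against 2 and 2 in CFAP20-KO. Its signal per kb was 1093 and 780 against 166 and 553.8. That lay below TPM1 coding bins, at 4315 and 3419 with the tagged protein. The shorter introns 5, 6 and 7 of TPM1 were denser, with intron 5 at 2571 and 1811 with the tagged protein and 207.5 and 692.2 in CFAP20-KO. These 3 introns rest on only 2, 1 and 1 bins close to exons, where borders are not resolved. Intron 5 also contains the alternative 76-base exon at chr15:63061198-63061273. Intron 17 of MYH9 had 52 and 47 overlaps with the tagged protein against 3 and 0, a signal per kb of 1114 and 1091 against 415 and 0. All of these introns were chosen after their values were seen.

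First introns were sparser than later ones in MYH9, ACTN4 and FLNA with the tagged protein. The first intron of MYH9 had a signal per kb of 44.5 and 42.8 with the tagged protein, against 24.2 and 22.0 in CFAP20-KO, where its later introns had 168 and 143 against 41.0 and 49.2. In ACTN4 the first intron had 54.9 and 38.6 with the tagged protein and 26.9 and 21.1 in CFAP20-KO, and the later introns 199 and 190 against 81.5 and 98.9. In FLNA the first intron had 101 and 69.7 in the tagged-CFAP20 libraries and 0 and 98.9 in CFAP20-KO, from 0 and 1 overlaps. Its later introns had 515.7 and 373 against 29.6 and 198. CALD1 showed little contrast with the tagged protein, at 6.23 and 7.62 in the first intron and 7.06 and 12.1 in later ones.

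Along the genes, the part farthest from the start held most signal in MYH9 and ACTN4 in all 4 libraries. When the measured span was split into 3 equal parts, the last part held 54.7% and 54.7% of overlaps in the tagged-CFAP20 libraries and 52.2% and 51.5% in CFAP20-KO, pooled over the 5 genes. The difference of 2.85 points again had the smallest possible exact permutation p, 0.333. It fell to 0.17 points without FLNA and rose to 5.75 points without TPM1. TPM1 went the other way, with 22.1% and 23.1% in the last part with the tagged protein against 43.5% and 26.4% in CFAP20-KO. In FLNA the last part held 55.9% and 51.9% with the tagged protein against 40.4% and 35.5% in CFAP20-KO, where the middle part held most, 53.2% and 41.9%. In CALD1 it held 43.5% and 48.8% with the tagged protein, and CFAP20-KO had only 2 and 5 overlaps over the gene. In MYH9 the last part held 70.5% and 67.7% with the tagged protein against 61.4% and 79.6%, and in ACTN4 70.8% and 76.4% against 60.0% and 68.2%. Other coding genes pooled had 39.7% and 40.4% there in the tagged-CFAP20 libraries and 42.0% and 39.6% in CFAP20-KO. Of the 610 well-covered genes, 39 had a larger share in the last part than ACTN4, 45 than MYH9, 142 than FLNA and 217 than CALD1, and most of the 610 had a larger one than TPM1.

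TPM1 had most signal in the middle of its measured span, where several of its exons lie close together. That middle part held 66.5% and 64.5% of overlaps with the tagged protein. In CFAP20-KO it held 27.8% and 47.2%, from 108 and 53 overlaps over the gene. The middle part was not the planned measure, and how many other genes differ in this way was not counted. The bin on exon 4 printed above had 185 and 147 overlaps with the tagged protein, against 4 and 4 in CFAP20-KO. The bin on exon 3 had 168 and 123, against 4 and 6 in CFAP20-KO, and the bin on exon 7 had 108 and 65, against 0 and 2. Scaled to signal, the bin on exon 4 had 2378 and 2048 against 332 and 1108. The bin on exon 3 had 2159 and 1714 against 332 and 1661, and that on exon 7 1388 and 905.7 against 0 and 553.8. These 3 bins together held 25.5% and 25.3% of TPM1 overlaps with the tagged protein, where the 3 top bins of FLNA, MYH9 and ACTN4 held between 6.99% and 8.77%. TPM1 is known for exons used in turn in different isoforms, and the alternative 76-base exon at chr15:63061198-63061273 had 64 and 40 overlaps with the tagged protein against 0 and 1 in CFAP20-KO. The canonical exon 6, also of 76 bases, had 175 and 107 over 2 bins, against 2 and 3. The final canonical exon, exon 10, had 46 and 20 overlaps over 3 bins in the tagged-CFAP20 libraries and 7 and 3 in CFAP20-KO. Its mean signal per bin was 145 with the tagged protein and 235 in CFAP20-KO, so by signal the control was higher.

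**Figure D3:**
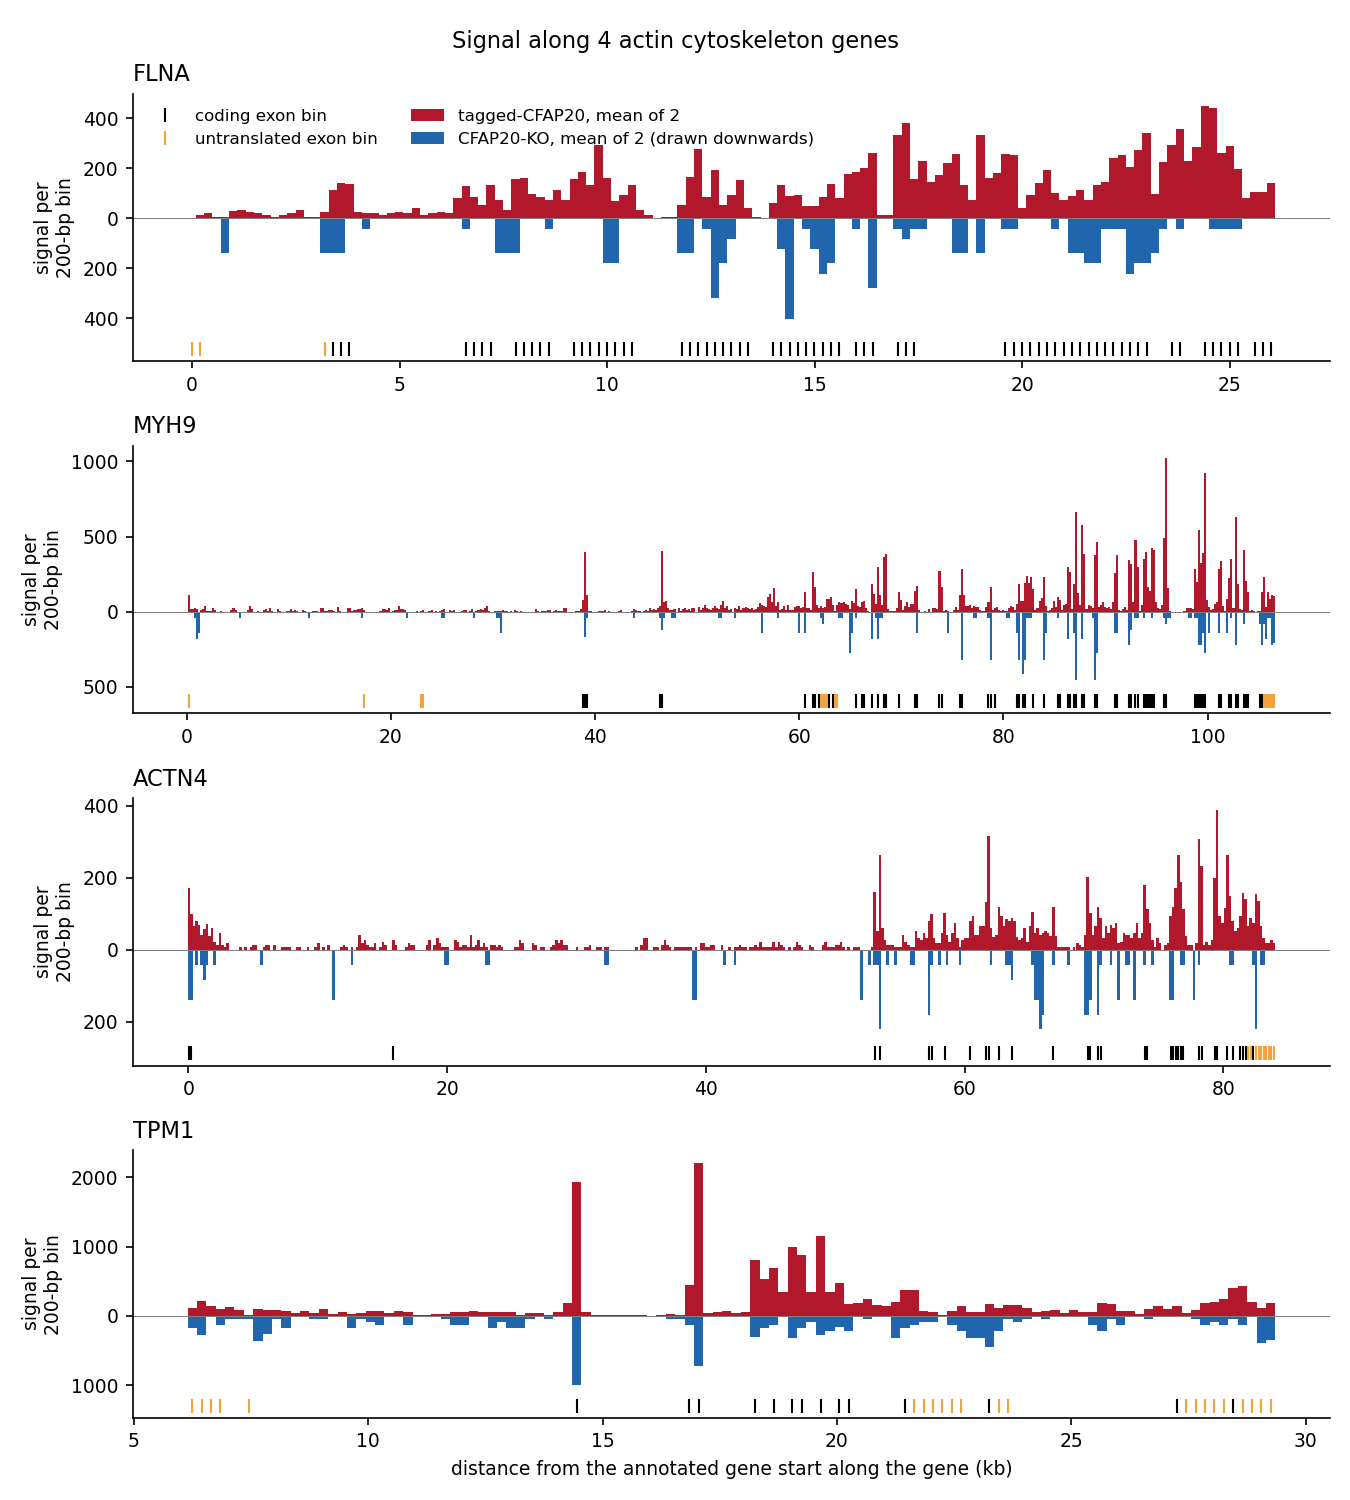
Signal per 200-bp bin along FLNA, MYH9, ACTN4 and TPM1 by distance from the annotated start, with the mean of the 2 tagged-CFAP20 libraries drawn upwards and that of the 2 CFAP20-KO libraries downwards; ticks mark exon bins. The highest peaks stand on coding exon bins, FLNA also has signal in intron 30 about 18 kb from the start, and long first introns of MYH9 and ACTN4 are nearly flat.

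The profile over bins was alike in both tagged-CFAP20 libraries. Across 116 bins in TPM1 and 131 in FLNA, the shortest of the 5, and more in the others, Pearson's r between replicates 1 and 2 was 0.970 in TPM1, 0.933 in MYH9, 0.856 in FLNA, 0.846 in ACTN4 and 0.547 in CALD1. Bins of a gene are not independent, and a read that spans 2 bins is counted in both. Other strong bins were exon 34 of MYH9, with 62 and 75 overlaps against 0 and 2 in CFAP20-KO, and exon 22, with 64 and 36 against 1 and 3. Overlaps are not scaled between libraries. In signal, exon 34 had 796.9 and 1045 against 0 and 553.8. Exon 22 had 822.6 and 501.6 against 83.0 and 830.6, so its highest value lay in a CFAP20-KO library. In ACTN4, exon 7 had 23 and 24 against 0 and 0, and exon 17 had 22 and 24 against 1 and 0. In FLNA the second bin of exon 45 had 44 and 23 against 1 and 0, and exon 29 had 29 and 28 against 2 and 0. CALD1 had 6 and 8 overlaps in its top bin, 3 and 4 in the next and 1 and 2 in the third, against 0 in both CFAP20-KO libraries in each.

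Untranslated exon bins, those that touch an exon but no coding sequence, held a smaller part of exon signal in both tagged-CFAP20 libraries than in either CFAP20-KO library, by a difference that 2 against 2 libraries cannot carry past 0.05. This measure was chosen after seeing the data. Pooled over the 5 genes they held 9.18% and 10.0% of exon overlaps in the tagged-CFAP20 libraries, against 29.0% and 12.1% in CFAP20-KO. The difference of -11.0 points had an exact permutation p of 0.333, and it was -2.55 points without CFAP20-KO replicate 1 and -19.4 points without CFAP20-KO replicate 2. With 3 shares tested, the adjusted p was 0.333 for each.

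TPM1 gave most of the untranslated signal. Its untranslated bins held 22.4% and 24.5% of its exon overlaps with the tagged protein (intervals 20.1 to 24.8 and 21.7 to 27.4), against 58.7% and 29.0% in CFAP20-KO (45.6 to 71.0 and 14.2 to 48.0). In MYH9 they held 4.67% and 5.69% against 23.1% and 4.76%, so that 1 CFAP20-KO library lay within the range of the tagged ones. In ACTN4 they held 9.86% and 10.5% against 19.0% and 10.0%, the last from 10 overlaps. Other coding genes pooled went the same way, at 18.7% and 19.6% in the tagged-CFAP20 libraries and 33.0% and 26.4% in CFAP20-KO, where untranslated bins were 37.7% of exon bins.

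**Figure D4:**
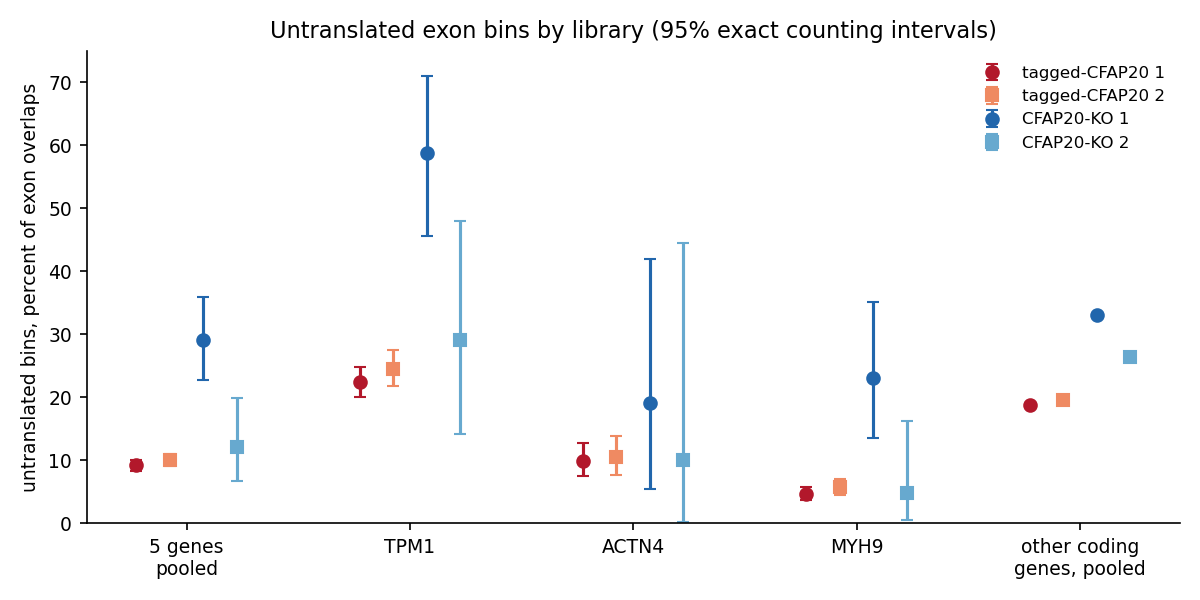
Overlaps in untranslated exon bins as a percentage of all exon overlaps, by library, with 95% exact counting intervals for the 5 genes pooled, TPM1, ACTN4 and MYH9; the points on the right are all other coding genes pooled, drawn without intervals. Both tagged-CFAP20 libraries lie below both CFAP20-KO libraries in the pooled genes, in TPM1 and in the other coding genes.

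The other actin cytoskeleton genes were described through 6 lists by role. Of 78 genes listed, 39 were measured and 36 had signal in at least 2 libraries, which limma tested together with all 8475 genes. With the scaling as deposited, 4 were called higher with the tagged protein at an adjusted p below 0.05 (limma, Benjamini-Hochberg), and 0 lower. An unadjusted limma p below 0.05 was found for 8 of the 36, beside 4022 of all 8475 genes. Of the 4, LCP1 and CFL2 had no CFAP20-KO overlap and passed the filter only through the tagged-CFAP20 group, so the direction of their calls was fixed. Over all genes tested 26.7% were called higher and 0.0118% lower, but 1851 of the 2267 called higher likewise had no CFAP20-KO overlap, and 1413 of them lay below the signal of 3 CFAP20-KO reads. The lists' count is therefore not compared with that share. With no filter on low values 0 list genes were called, and 8 of 38 had an unadjusted p below 0.05, beside 3640 of all 10492 genes. The lists' median log2 change was 0.56 on the log2(signal + 276.88) scale, beside 0.45 over all genes. No gene was called, in the lists or elsewhere, when libraries were scaled to the same total window signal. On that scale 6 of the 36 had an unadjusted p below 0.05, beside 3063 of all 8475 genes.

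The 4 called genes were LASP1, PFN2, LCP1 and CFL2, and their CFAP20-KO values rested on 3 overlaps or fewer. LASP1, an adaptor at focal adhesions, had a signal of 1247 and 1226 in the tagged-CFAP20 libraries, against 249 and 0 in CFAP20-KO, with a log2 change of 1.99 ± 0.42 (SE) and a limma adjusted p of 0.0442. The ratio of its pooled reads, scaled by the signal that 1 overlap is worth in each library, was 6.46, with a counting interval of 2.18 to 31.6. That ratio and its interval depend on the deposited scaling. PFN2, a profilin that delivers actin monomers, had 514.1 and 696.7 against 83.0 and 0, with a log2 change of 1.48 ± 0.29 and a limma adjusted p of 0.0395. LCP1, which bundles filaments, had 77.1 and 125 against 0 and 0, and CFL2, a cofilin that severs filaments, had 116 and 111 against 0 and 0. Both lay below the floor of 263, the signal of 3 reads pooled over the CFAP20-KO libraries, so no fold is given for them.

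Genes with most signal in each list did not pass the test. Among the actins, ACTG1, the cytoplasmic gamma-actin, averaged 2931 ± 328 with the tagged protein and 1578 ± 118 in CFAP20-KO (SD, n = 2 each). ACTA2, smooth muscle actin, averaged 164 ± 114 and 166 ± 235 in the same groups, and ACTG2 had 0 and 1 overlaps in tagged-CFAP20, against 0 and 0 in CFAP20-KO. Among the crosslinkers FLNC averaged 1250 ± 231 with the tagged protein and 678.3 ± 607.1 in CFAP20-KO, PLS3 1074 ± 80.6 and 1010 ± 138, and LIMA1 998.1 ± 66.4 and 1038 ± 881.3. MYL6, the light chain that pairs with the MYH9 heavy chain, averaged 2123 ± 560 with the tagged protein and 664.3 ± 235 in CFAP20-KO, with a limma adjusted p of 0.0616. MYL12A averaged 417 ± 156 and 457 ± 528.7, and MYL12B 222 ± 41.0 and 138 ± 196. TPM4, another tropomyosin, averaged 2138 ± 67.2 with the tagged protein and 899.7 ± 685.5 in CFAP20-KO, while TAGLN averaged 575.9 ± 32.8 and 899.7 ± 685.5 and TAGLN2 averaged 265 ± 98.4 and 484 ± 98.1. At focal adhesions PDLIM7 averaged 7820 ± 537.4 with the tagged protein and 2588 ± 1430 in CFAP20-KO, with a limma adjusted p of 0.0675. PDLIM5 averaged 2206 ± 262 and 2644 ± 1743, and TNS3 1517 ± 17.5 and 1661 ± 1175. Among genes of filament turnover, WDR1 averaged 2411 ± 316 with the tagged protein and 1523 ± 979.4 in CFAP20-KO, ACTR2 averaged 1059 ± 138 and 249 ± 352, and PFN1 averaged 935.4 ± 214 and 207.5 ± 293. TAGLN, TAGLN2 and PDLIM5 were the 3 of the 36 with a log2 change below 0, and the signs were not read further because scaling to the same total window signal moves the lists' median to -0.06.

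**Figure D5:**
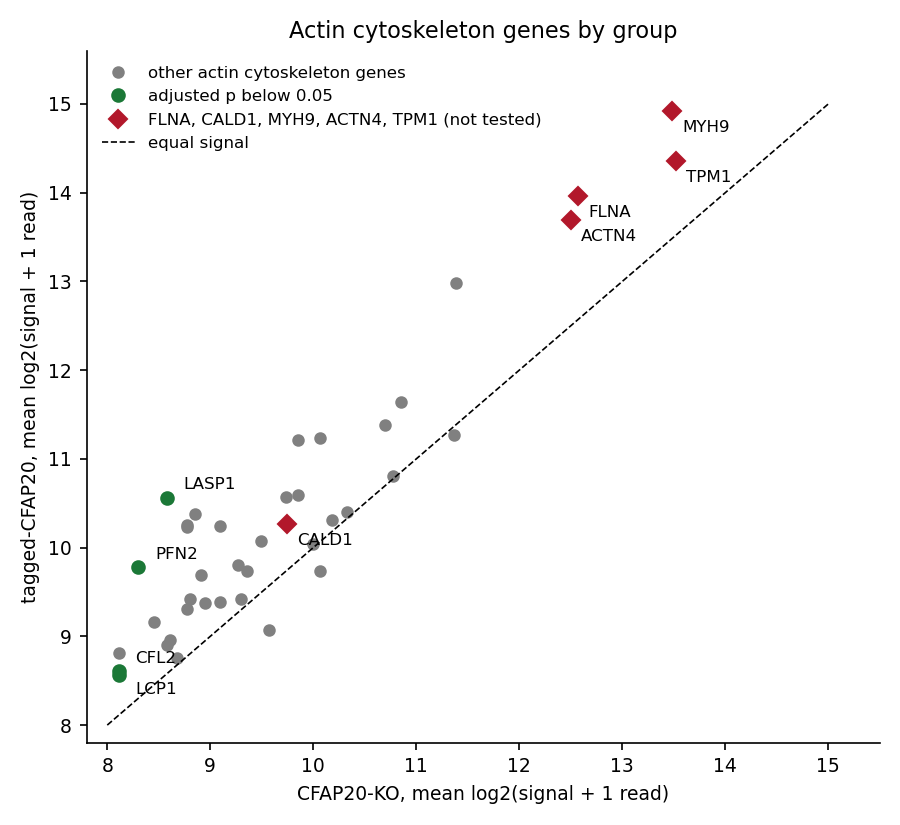
Mean log2(signal + 1 read of the shallowest library) of each actin cytoskeleton gene in tagged-CFAP20 (vertical axis) against CFAP20-KO (horizontal axis), with the dashed line marking equal signal. MYH9, TPM1, FLNA and ACTN4 lie above the other genes in both groups, and the 4 called genes lie at the low end of the CFAP20-KO axis.

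The genes nearest to the 5 in level across the 4 libraries, by Euclidean distance of log2(signal + 276.88), were SRRM2 (0.90), HMGA2 (1.00) and LRP1 (1.02) for FLNA. For ACTN4 they were LRP1 (0.53), FAM20C (0.76) and ITGA3 (0.79). For MYH9 they were SRRM2 (1.37), HMGA2 (1.79) and FN1 (2.31), and for TPM1 they were HMGA2 (1.07), SRRM2 (1.38) and FAM20C (1.73). For CALD1 they were ARMC8 (0.28), MET (0.29) and ADGRL4 (0.39). SRRM2 had a signal of 25334 and 23352 in the tagged-CFAP20 libraries and 4233 and 8030 in CFAP20-KO.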

How the data were processed

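FLASH-seq signal was measured in 2 tagged-CFAP20 and 2 CFAP20-KO libraries, grouped and numbered by their titles. The authors deposited 1 table of signal per library, in 200-bp bins around gene starts, and other deposited columns give each gene's position and length. The submitters' processing notes name hg38, HOMER 4.8.2, Bowtie2 2.3.5, UMI-tools 1.0.0 and R 4.0.5, without roles, order or a scaling target, which are therefore not given here. All values (100.0%, tolerance 0.01) were whole multiples of 1 step per library, read as 1 overlap. Whole-read counts cannot be had, because reads span bins. Bins from 50 kb upstream to 100 kb downstream were used; 250 farther upstream bin columns and 1 column of no sample were not used. Signal is not split by strand, so overlapping genes cannot be told apart.

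Of 9667 identifiers, 9478 matched GENCODE 44. Coding genes without a line entered where neighbouring windows covered at least 75% of them, which gave 15392 genes. A gene absent from a library's table was given 0 there; in all 623 such cases visible through other windows, 0 reads were found. limma 3.58.1 (R 4.3.3, trend) was run on log2(signal + 276.88), 1 read of the shallowest library, over the 8475 genes above 0 in at least 2 libraries; the step was tested on simulated data with known changes in genes of high signal (moved up from genes of lower signal during testing), where direction and size were recovered but no gene passed the adjusted threshold. Shares were compared with exact permutation tests over 6 assignments. Intervals are 95% exact binomial (Clopper-Pearson). Named genes are the 5, list genes past the threshold, the 3 of each list with most tagged-CFAP20 signal, the 3 nearest in level to each of the 5, and the 3 strongest bins. The 5 genes and the lists were chosen with earlier results of these data known. Alternatives covered pseudocount, scaling, filter, trend, replicate block, gene set, exon definition, shared bins and left-out genes or libraries.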

Additional observations from a re-analysis of the deposited data

How the results depend on the processing

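Calls across genes depended on the processing. limma called 2268 genes, 4 of them in the actin lists, with the scaling as deposited. It called 0 genes, and 0 in the lists, with libraries scaled to the same total window signal (3063 genes and 6 list genes at an unadjusted p below 0.05) and with no filter on low values (3640 and 8). It called 1046 and 2 with lines of the tables only and 1056 and 2 without trend. With a pseudocount of 10 it called 3045 and 4. With the replicate number as a block it called 3367 and 9; same-numbered libraries deviated from their group means with a correlation of -0.03 over 8475 genes and the labels do not say that numbers pair libraries, so they share only a number. Leaving out 1 library gave between 0 and 5181 genes and between 0 and 27 list genes, with 0 and 0 without either tagged-CFAP20 library (92 and 149 genes, and 0 and 1 list genes, at an unadjusted p below 0.05), 5181 and 27 without CFAP20-KO replicate 1 and 4562 and 24 without CFAP20-KO replicate 2; the lone library left in a group was then assumed to vary like the other group.

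The summed ratio of the 5 genes, 2.25, was 1.06 as a share of window signal and between 1.78 and 3.08 with 1 library left out. The CALD1 ratio of 1.25 turned to 0.658 as a share, 0.729 without bins shared with other genes and 0.700 without CFAP20-KO replicate 1, and reached 5.84 without CFAP20-KO replicate 2; the TPM1 ratio of 1.77 turned to 0.821 as a share. The FLNA ratio was 4.02 without CFAP20-KO replicate 2. The exon share difference of 3.01 points turned to -3.29 with at least 100 exonic bases per bin. It kept its sign, between 0.21 and 6.50, under the other alternatives, and the last-part difference stayed between 0.17 and 6.70 and the untranslated difference between -19.4 and -2.55. Causes were not tested. The CFAP20-KO libraries limit all of this, with 318 and 165 overlaps over the 5 genes.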
